A study of Mus musculus with 3 samples.

Results

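Integrins and laminins were examined as 1 group of 37 genes in the mouse heart ventricle. They were taken as the loci of the deposited annotation named as an integrin alpha gene (Itga and a suffix), an integrin beta gene (Itgb1 to Itgb8) or a laminin chain gene (Lama, Lamb or Lamc and a number). The names covered 26 integrin genes, of which 18 encode alpha and 8 encode beta chains, and 11 laminin genes. They fell on 40 of the 48626 loci of the expression table. Of these, 36 held a transcript that matched the reference, and the other 4 were unspliced fragments on the strand opposite to Itga11. Itgad and Itgax shared 1 locus, and the Itga10 locus was joined to a gene outside the group, so their values cannot be divided between the genes. Of the 36 matched loci, 31 reached an expression level of 1 FPKM (fragment number scaled to exon length and to library size) in at least 1 library, and these are called expressed here.

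The study sequenced total RNA from heart ventricles of C57BL/6 mice (C57BL/6 J in the methods of the study) at embryonic stages E10.5 and E13.5 and at 8 weeks, the adult stage, with no genetic change or treatment named for any of them. Libraries were made with a stranded total RNA kit, and each stage had 1 library. Differences between stages therefore had no replicate check, and no test or error could be computed for any of them. The number of animals behind each library is not given in the sources used here.

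Laminins are the cross-shaped proteins of the basement membrane, the sheet of matrix around muscle fibres and under endothelium, and each is a trimer of an alpha, a beta and a gamma chain. Integrins are receptors made of an alpha and a beta chain that bind laminins, fibronectin, collagens or partners on other cells and link them to the cytoskeleton. In striated muscle the laminin with the Lama2 chain, the integrin of Itga7 and Itgb1 and the dystroglycan complex connect the fibre to its basement membrane, and loss of LAMA2 or ITGA7 is known to cause muscular dystrophy or myopathy.

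Each change given is the later minus the earlier log2(FPKM + 1), a scale on which low loci change too little, and a locus was counted as higher or lower when the change was at least 1. The libraries were not level with each other. Over the 12569 expressed mRNA loci, the median change between E10.5 and adult was -0.40 as deposited and -0.06 after median-of-ratios scaling, so both scales are given where they matter. The change from E10.5 to E13.5 also fell with transcript length (Spearman's rho = -0.468 over the 12569 loci, which share the same libraries), and the next interval ran the other way (rho = 0.22). No such trend was seen between E10.5 and the adult (rho = -0.002). This comparison is therefore described first, and a change given with no interval is the one between these stages. Cardiomyocyte markers were high in each library. In the order E10.5, E13.5, adult, which is kept wherever 3 values are listed, Tnnt2 was at 626, 1522 and 3148 FPKM and Pln at 505, 745 and 4551 FPKM. In whole ventricle, a change in the number of cells of a type and a change in RNA per cell cannot be told apart.

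From E10.5 to the adult, 8 of the 31 expressed integrin and laminin loci were higher and 10 were lower. Over all expressed mRNA loci, 14.8% were higher and 27.3% were lower. The median change was 0.12 over the 31 loci and -0.40 over all mRNA loci, or 0.44 and -0.06 after median-of-ratios scaling. On that scale 10 loci were higher and 8 were lower, as Itgb5 and Lama5 joined the higher loci and Itga3 and Itgav left the lower ones. The shares of 14.8% and 27.3% are as deposited, and no shares over all mRNA loci are given for the rescaled counts. As deposited, 32.3% of the 31 loci were lower, near the share of all mRNA loci, and 25.8% were higher. Among the higher loci, Itgam, Itgb2, Itgb6, Itgb7 and the joint locus of Itgad and Itgax were below 1 FPKM in both embryonic libraries. They counted as expressed only through the adult, so their place among the higher loci follows in part from the filter. The 5 loci with a change of 2 or more were Itga7, Itgam, Itgb6, Itgb2 and Lama2, all of them higher in the adult, and none was lower by as much on this scale. With a pseudocount of 0.1 in place of 1, the loci lower by 2 or more were Lama1 (-4.22), Itgb3 (-2.45), Itga2b (-2.17), Itgb8 (-2.11) and Itga6 (-2.03). Among the 31 loci the adult had, as deposited, the highest level for 12 and the lowest for 13. These counts depend on library scaling. After median-of-ratios scaling, some of the 13 had a higher value in the adult than at E13.5. They were Itga5 (change from E13.5 of 0.43), Itgav (0.36), Itga4 (0.30), Itga3 (0.28) and Itgb1 (0.27).

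**Figure D1:**
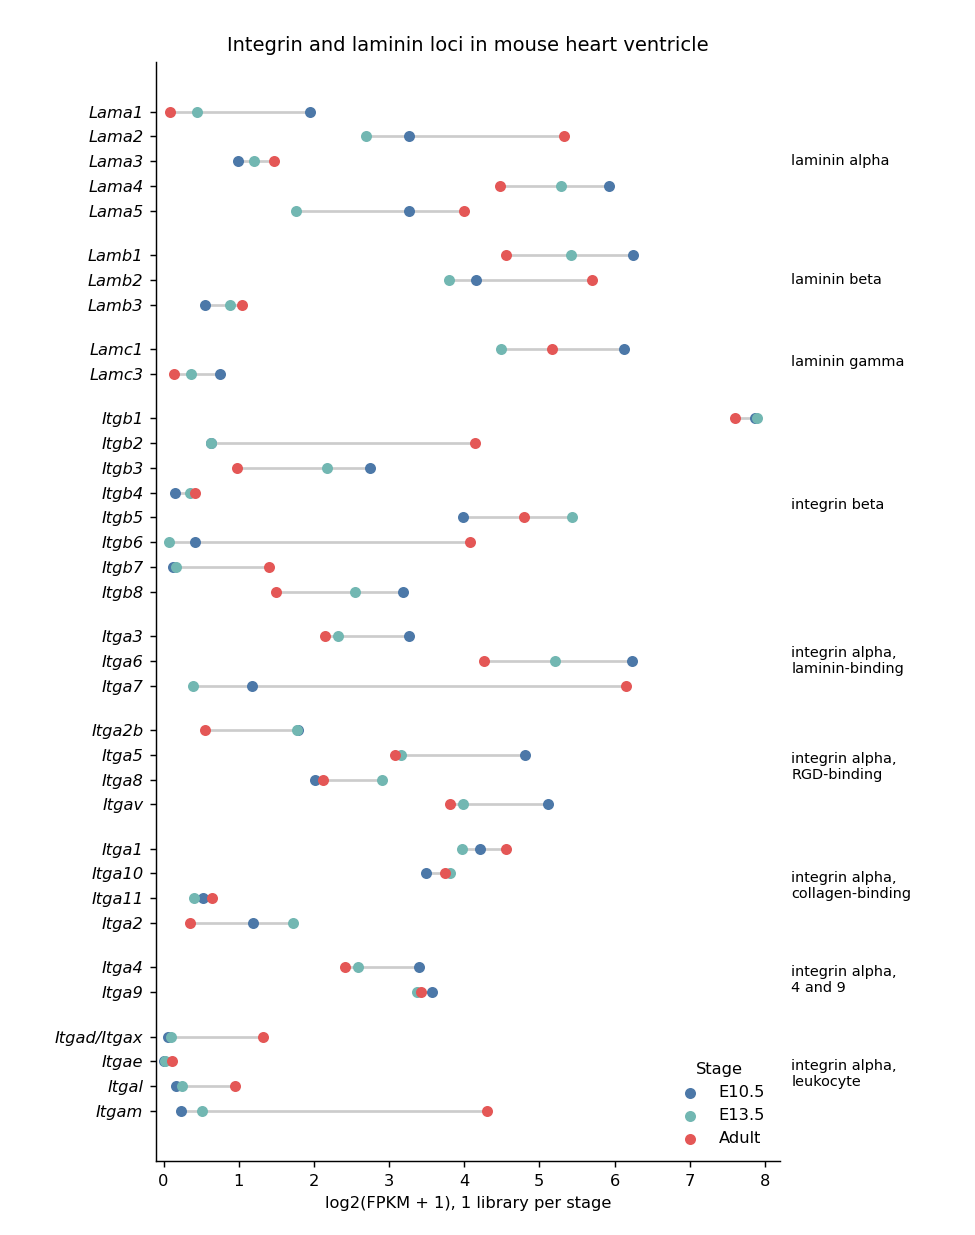
Expression level, as log2(FPKM + 1), of 35 of the matched integrin and laminin loci at E10.5 (blue), E13.5 (teal) and in the adult (red), 1 library per stage, grouped by chain and ligand. Itgb1 lay at the top in each library (193 to 237 FPKM), and the adult point of Itga7, Itgam, Itgb2 and Itgb6 stood far to the right of both embryonic points.

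**Figure D2:**
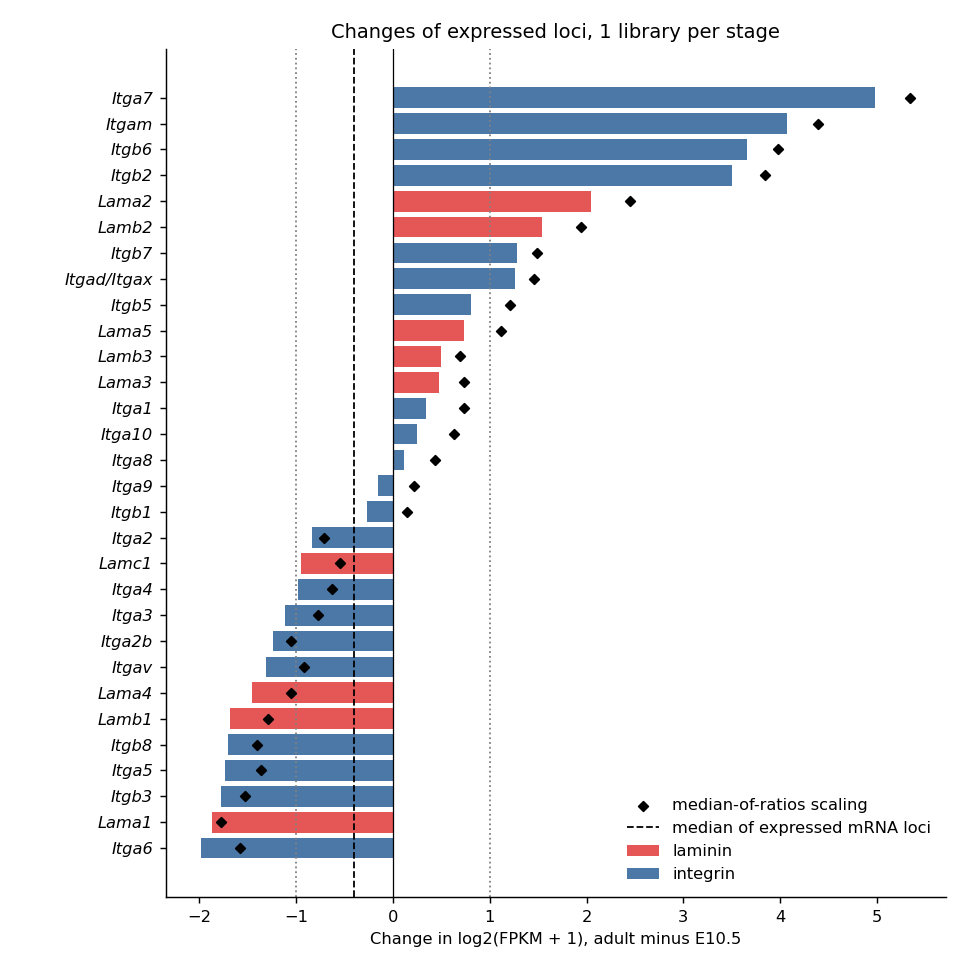
Change in log2(FPKM + 1) from E10.5 to the adult for 30 of the expressed loci (bars, laminins red and integrins blue), with the value after median-of-ratios scaling (diamonds), the threshold of 1 (dotted lines) and the median of all expressed mRNA loci (-0.40, dashed line). Bars ran from 4.98 for Itga7 to -1.98 for Itga6.

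The laminin alpha chains changed their order between embryo and adult. Lama4, the chain of endothelial and interstitial basement membranes, had 59.6, 38.1 and 21.2 FPKM in the 3 libraries (change of -1.45 over the whole span). Lama2, the muscle chain, had 8.65, 5.48 and 39.0 FPKM, which is 4.51-fold more in the adult than at E10.5 (change of 2.05, or 2.45 after median-of-ratios scaling). Lama2 was thus low at both embryonic stages and the leading alpha chain in the adult. Its ratio to Lama4 was 0.145, 0.144 and 1.84.

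Lama5, a chain of endothelial and epithelial basement membranes, had its lowest level in the middle of the series, with 8.60, 2.39 and 14.9 FPKM (change of 0.73 over the whole span, and 1.12 after median-of-ratios scaling). Lama1, which is known mainly from the early embryo, was at 2.86, 0.364 and 0.0591 FPKM, a 48.4-fold difference between E10.5 and the adult (change of -1.87). The adult value of Lama1 rested on about 8 fragments. Lama3, the chain of the laminin that anchors epithelia, stayed low at 0.986, 1.31 and 1.76 FPKM.

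As shares of the summed FPKM of the 5 alpha chains, which do not depend on library scaling, Lama4 took 73.9%, 80.0% and 27.5%. The Lama2 share was 10.7%, 11.5% and 50.7%, and that of Lama5 was 10.7%, 5.02% and 19.4%. The exchange lay between E13.5 and the adult. The sum of the alpha chains was 80.7, 47.7 and 76.9 FPKM as deposited, where the outer stages differed little. Unlike the shares, this sum depends on library scaling, and the median-of-ratios factors of the outer stages were 1.07 and 0.804.

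The beta chains changed places in the same interval. Lamb1, the beta chain of most embryonic laminins, had 74.7, 41.9 and 22.5 FPKM (change of -1.69). Lamb2, known from muscle, the neuromuscular junction and the kidney filter, had 16.9, 12.8 and 50.9 FPKM (change of 1.54, or 1.94 after median-of-ratios scaling). The Lamb1 share of the beta chains was 81.2%, 75.4% and 30.2%, and the Lamb2 share was 18.3%, 23.1% and 68.3%. The ratio of Lamb2 to Lamb1 was 0.226, 0.307 and 2.26. Lamb3, the partner of Lama3 in the epithelial laminin, was at 0.464, 0.837 and 1.06 FPKM.

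Among the gamma chains, Lamc1, the chain of nearly all laminins, had 68.8, 21.4 and 35.1 FPKM. Its change over the whole span was -0.95, and -0.55 after median-of-ratios scaling. Lamc3 stayed below 1 FPKM in each library, between 0.102 and 0.685.

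**Figure D3:**
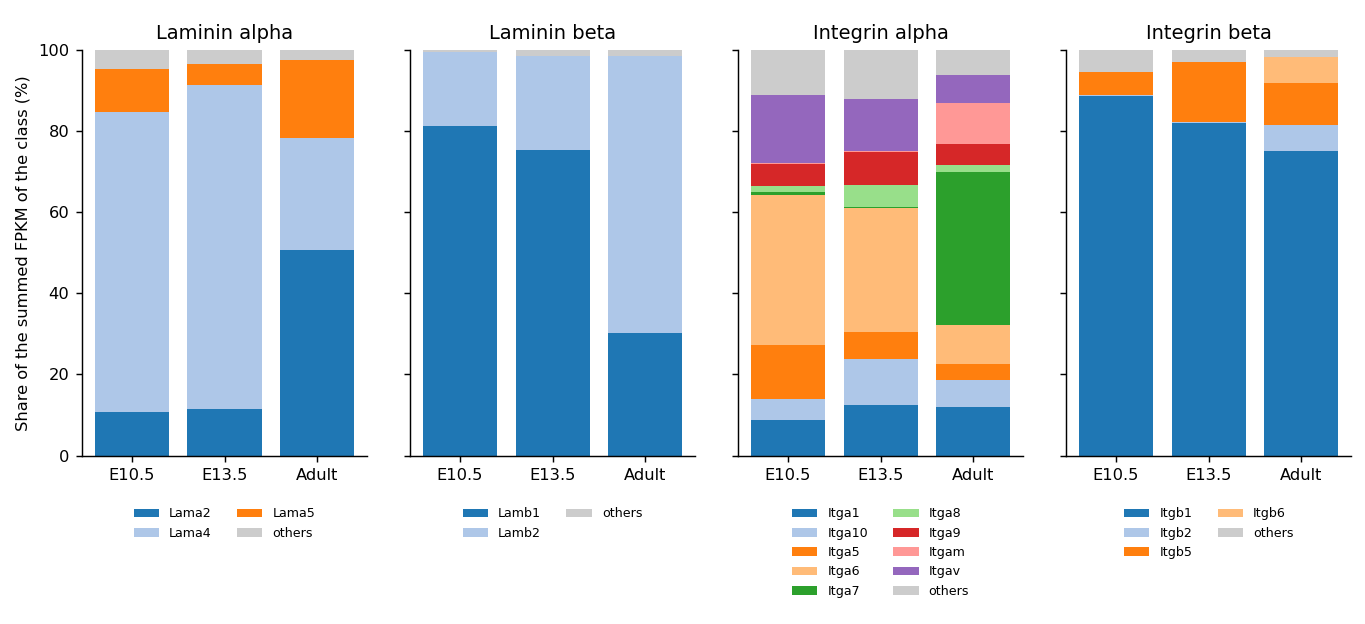
Share of each chain in the summed FPKM of its class within a library (bars, from 0 to 100%) for laminin alpha and beta chains and integrin alpha and beta chains. Chains below 5% in all 3 libraries are pooled in grey. Lama2, Lamb2 and Itga7 took 50.7%, 68.3% and 37.6% of their class in the adult, against 10.7%, 18.3% and 0.629% at E10.5.

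The sequences before the start sites of the chains that changed places are shown because their base composition differed, which is given as a description only. Each run gives the 250 bases before the RefSeq start site (assembly GRCm38.p6, 5′ to 3′ on the strand of the gene), with CG dinucleotides in capitals. Lama2 lies on the minus strand at chr10:27616943-27617192, Lamb1 on the plus strand at chr12:31265043-31265292 and Lamb2 on the plus strand at chr9:108479612-108479861.
Lama2: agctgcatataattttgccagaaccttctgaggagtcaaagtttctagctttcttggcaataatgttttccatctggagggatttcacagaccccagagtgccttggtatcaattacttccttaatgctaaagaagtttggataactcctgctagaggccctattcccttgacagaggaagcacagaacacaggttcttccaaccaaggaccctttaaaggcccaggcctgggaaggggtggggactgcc
Lamb1: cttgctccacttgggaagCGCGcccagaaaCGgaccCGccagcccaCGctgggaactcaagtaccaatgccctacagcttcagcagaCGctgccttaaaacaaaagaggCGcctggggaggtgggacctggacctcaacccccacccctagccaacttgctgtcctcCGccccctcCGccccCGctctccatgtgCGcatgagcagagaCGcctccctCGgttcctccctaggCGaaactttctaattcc
Lamb2: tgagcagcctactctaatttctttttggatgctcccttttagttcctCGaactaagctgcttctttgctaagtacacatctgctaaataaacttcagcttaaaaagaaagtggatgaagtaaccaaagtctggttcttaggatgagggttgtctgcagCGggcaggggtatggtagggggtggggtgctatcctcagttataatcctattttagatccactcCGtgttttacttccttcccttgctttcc

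The window of Lamb1, the chain with more FPKM in the embryo, held 14 CG dinucleotides, with a ratio of observed to expected CG of 0.627. Those of Lama2 and Lamb2, with more FPKM in the adult, held 0 and 3, with ratios of 0 and 0.253. Other members went the other way, since Lama5, highest in the adult, had 19 and a ratio of 0.580, and Itga2b, highest at E10.5, had 2 and a ratio of 0.119. Of all 32851 promoters in the RefSeq table, 67.9% had a lower ratio than Lamb1 and 37.0% a lower ratio than Lamb2. An assembled transcript started at the RefSeq start site of Lama2 and of Lamb2 and 1 base from that of Lamb1. Lama2 had 9 assembled start positions, of which 1 lay in or near its window.

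Promoters of 23 of the 37 genes were matched, as 26 windows of 250 bases. The entries not matched included Itga6, Itga7, Itgad, Itgae, Itgal, Itgb2, Itgb3, Itgb4, Lama1, Lama3, Lama4, Lamc1 and Lamc3. Over the 26 windows the median CG ratio was 0.442, against 0.374 over all promoters. Short motifs were searched on both strands, none of which contains another. The GC box (GGGCGG) was in 9 of the 26 windows and in 32.7% of all promoters, the E-box CAGCTG in 6 and in 13.0%, the CCAAT box (CCAAT) in 4 and in 33.8%, and the M-CAT element (CATTCC) in 3 and in 12.6%. The GATA motif AGATAA was in 1 window and in 9.99% of all promoters, and the TATA box (TATAAA) was in 0 of the 26 and in 12.4% of all. The Lamb1 window held 2 GC boxes and 1 CCAAT box, and no letters of the 6 motifs were found in the Lama2 and Lamb2 windows.

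Among the integrin alpha chains that bind laminin, Itga6 and Itga7 exchanged places. Itga6, the laminin receptor chain of many embryonic and endothelial cells, had 74.4, 35.9 and 18.1 FPKM. Its change over the whole span was -1.98, or -1.58 after median-of-ratios scaling. Itga7, the laminin receptor chain of muscle fibres, had 1.26, 0.309 and 70.3 FPKM. This was 55.7-fold more in the adult than at the first stage and the largest change of the 31 loci (4.98, or 5.34 after median-of-ratios scaling). Of the 12569 expressed mRNA loci, 20 had a larger change upward.

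The embryonic values of Itga7 rested on about 71 and 28 fragments, the adult value on about 4265. Its rank among mRNA loci was 11030, 12837 and 628. The ratio of Itga7 to Itga6 was 0.0170, 0.00859 and 3.88. In the summed FPKM of the alpha chains, Itga6 took 37.0%, 30.6% and 9.68%, and Itga7 took 0.629%, 0.263% and 37.6%. Itga3, a further laminin-binding chain, known from kidney, lung and skin, was lower in the adult with 8.62, 4.003 and 3.44 FPKM (change of -1.11, and -0.78 after median-of-ratios scaling).

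Itgb1, the beta chain shared by these and most other matrix-binding integrins, held the highest level of the group in each library, at 232, 237 and 193 FPKM. It ranked 153rd, 226th and 214th among mRNA loci. Its change over the whole span was -0.27 as deposited and 0.15 after median-of-ratios scaling, so no direction was kept. It took 88.6%, 82.1% and 75.0% of the beta sum. The ratio of Itgb1 to the summed FPKM of its alpha partners was 1.17, 2.08 and 1.16.

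Both Itgb1 and Itga6 were assembled with and without an alternative exon that changes the tail of the protein inside the cell. The 2 exons are shown since the expression table has 1 value per locus and cannot divide it between these forms. The muscle form of the beta chain, called β1D, is known to carry an added exon before the last one, and the tails of α6A and α6B differ in the same way. In the sequences (GRCm38, plus strand, 5′ to 3′) the stop codon reached in the reading frame of the RefSeq coding exon upstream is in capitals. The Itgb1 exon lies at chr8:128726983-128727063 and the Itga6 exon at chr2:71853534-71853663.
Itgb1 exon: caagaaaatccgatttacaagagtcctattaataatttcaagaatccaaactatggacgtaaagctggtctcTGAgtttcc
Itga6 exon: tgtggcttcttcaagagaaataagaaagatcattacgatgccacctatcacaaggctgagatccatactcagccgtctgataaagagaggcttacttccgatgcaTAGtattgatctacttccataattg

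The Itgb1 exon of 81 nt was in 1 of the 3 assembled Itgb1 transcripts, and its frame ran for 24 codons before the stop. The Itga6 exon of 130 nt was in 3 of the 6 assembled Itga6 transcripts, with 35 codons before the stop, and was skipped by the other 3. Introns on both sides of each exon had GT and AG ends, and GENCODE M21 listed each exon in 1 transcript. The assembly was merged over the libraries, so the stage at which each form was used was not measured. The annotated Itgb1 transcripts also differed in the last exon, which had 1557 nt in 1 and 12635 nt in the other 2, and the FPKM of this locus depends on which length was used.

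Chains that bind the RGD motif of fibronectin and vitronectin were lower in the adult for 3 of 4 loci, where 27.3% of all expressed mRNA loci were lower. The count was 2 after median-of-ratios scaling and 1, Itga5, after the subtraction of the median change of mRNA loci of like length. No share over all mRNA loci is given after these adjustments. Itga5, the fibronectin receptor chain, had 27.0, 7.90 and 7.42 FPKM (change of -1.73). Itgav, which pairs with several beta chains, had 33.7, 14.8 and 13.0 FPKM (change of -1.31, and -0.92 after median-of-ratios scaling). Itga2b, the platelet chain, had 2.45, 2.43 and 0.468 FPKM (change of -1.23). The E13.5 and adult values lay close together for Itga5 and Itgav, and the embryonic values did for Itga2b. Itga8, a chain of mesenchymal cells that binds nephronectin, was highest at E13.5 with 3.03, 6.47 and 3.37 FPKM. Its change from E13.5 to the adult was -0.77, and -0.31 after median-of-ratios scaling. The platelet markers did not move together, with Gp9 at 1.46, 1.97 and 0.185 FPKM and Pf4 at 13.1, 21.6 and 37.6 FPKM. Their summed level was 21.8, 37.0 and 45.1 FPKM, with none of the 5 at 0, and their part in the Itga2b values was not tested.

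Among the chains that bind collagens and the pair Itga4 and Itga9, no expressed locus changed by 1 between E10.5 and the adult, although Itga2 (-1.89) and Itga4 (-1.12) did with a pseudocount of 0.1. Itga1, a collagen receptor chain of mesenchymal and muscle cells, had 17.6, 14.7 and 22.5 FPKM. The joint locus of Itga10 had 10.2, 13.1 and 12.3 FPKM. Itga2, the collagen receptor chain known from platelets and epithelia, was at 1.28, 2.29 and 0.272 FPKM, a 4.69-fold lower adult value (change of -0.84).

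Itga4, which binds VCAM1 and fibronectin, had 9.57, 5.03 and 4.35 FPKM (change of -0.98). Itga9, which binds tenascin among other ligands, had 10.9, 9.38 and 9.69 FPKM, a change of -0.16 that was 0.22 after median-of-ratios scaling. Itga11 stayed below 1 FPKM (0.331 to 0.564), although Col1a1 and Col1a2, whose product it binds, were at 10.7 to 100 FPKM.

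Of the loci of leukocyte integrins, Itgam, Itgb2, Itgb7 and the joint locus of Itgad and Itgax were higher in the adult, while Itgal and Itgae did not reach 1 FPKM. Itgam, the alpha chain of macrophages and neutrophils, had 0.176, 0.421 and 18.8 FPKM, a 107-fold difference between E10.5 and the adult (change of 4.07). The E10.5 value of Itgam rested on about 12 fragments, so this fold is rough. Itgb2, its beta chain, had 0.556, 0.545 and 16.7 FPKM (change of 3.51). The level of Itgam relative to Itgb2 was 0.317, 0.773 and 1.13. The joint locus of Itgad and Itgax, whose products also pair with that of Itgb2, had 0.0410, 0.0731 and 1.49 FPKM (change of 1.26). Itgb7, known from lymphocytes, had 0.0882, 0.118 and 1.64 FPKM (change of 1.28). The E10.5 values of the last pair of loci rested on about 2 and 3 fragments, so no fold is given. Itgal stayed below 1 FPKM (0.122 to 0.925), and Itgae was listed at 0 at E10.5 and at no more than 0.0862 FPKM.

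Leukocyte markers moved with these loci. All 6 expressed markers of the list of 8 were higher in the adult than at E10.5, with a median change of 3.70. Over all expressed mRNA loci, 14.8% were higher. Csf1r, the receptor that macrophages need, had 0.729, 6.01 and 24.4 FPKM, and Ptprc, the common leukocyte antigen CD45, had 0.192, 1.11 and 15.0 FPKM. The summed level of the 8 markers was 37.9, 74.7 and 357 FPKM. The T cell marker Cd3e, listed at 0 in both embryonic libraries, and the B cell marker Cd79a were below 0.14 FPKM in each library. Between E10.5 and E13.5, 3 of the 6 expressed markers were already higher, among them Csf1r (change of 2.02), against 5.89% of all expressed mRNA loci. Ptprc (0.83), Cd68 (0.44) and Lyz2 (0.41) did not reach the threshold. Itgam and Itgb2 changed by 0.27 and -0.01 in that interval, and both were below 1 FPKM at these stages, where the scale shrinks changes. Itgb2 was level apart from the scale, at 0.556 and 0.545 FPKM, with a change of -0.02 at a pseudocount of 0.1. The part of leukocyte number in the integrin values was not tested.

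The remaining beta chains went in different directions. Itgb6, which with Itgav binds the latent form of transforming growth factor beta and is known from epithelia, had 0.341, 0.0487 and 15.9 FPKM. That is 46.6-fold more in the adult than at E10.5 (change of 3.66, or 3.98 after median-of-ratios scaling). The embryonic values rested on about 23 and 5 fragments, the adult value on about 1175, so the fold is rough. Of the 3 epithelial markers, Epcam was at 0.352, 0.438 and 0.0271 FPKM and Cdh1 at 0.0859, 0.158 and 0.3004 FPKM. Krt19, whose locus is joined to Krt14, Krt17 and Krt42, was at 18.1, 41.5 and 2.57 FPKM. The summed level of the 3 markers was 18.6, 42.1 and 2.90 FPKM, with none at 0, and their part in the Itgb6 values was not tested. Assembled Itgb6 transcripts started at both RefSeq start sites of the gene.

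Itgb5, a partner of Itgav that binds vitronectin, was highest at E13.5 as deposited, with 14.8, 42.4 and 26.8 FPKM. Its change from E13.5 to the adult was -0.64, but -0.09 after median-of-ratios scaling and -0.12 after the subtraction for length. Its change over the whole span was 0.81, and 1.21 after median-of-ratios scaling. Itgb3, a partner of Itga2b and Itgav, had 5.69, 3.52 and 0.960 FPKM (change of -1.77). Itgb8, a further partner of Itgav, had 8.13, 4.86 and 1.81 FPKM (change of -1.70). Itgb5 was the highest of these 3 in each library, and the ratio of Itgb5 to Itgb3 was 2.61, 12.04 and 27.9. Itgb4, the partner of Itga6 in the attachment of epithelia, stayed between 0.109 and 0.334 FPKM.

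From E10.5 to E13.5, 1 of the 31 loci was higher and 6 were lower, against 5.89% and 4.85% of all expressed mRNA loci. The higher locus was Itgb5 (change of 1.45), and the lower ones were Itga5 (-1.65), Lamc1 (-1.64), Lama1 (-1.50), Lama5 (-1.50), Itgav (-1.13) and Itga6 (-1.03). Laminin transcripts are long, with a median of 6046 nt for the matched transcripts against 3247 nt over all expressed mRNA loci, and integrin transcripts had a median of 4894 nt. The median change of mRNA loci in this interval was 0.57 for transcripts up to 1000 nt and -0.73 for those above 12000 nt. When the median change of mRNA loci of like length was subtracted, Itga5 (-1.68), Lamc1 (-1.32) and Itga6 (-1.05) were still lower by 1, Lama1 (-0.997) and Lama5 (-0.995) came just inside the threshold, and Itgav was at -0.94. Itgb5 (1.29) was joined by Itga8 (1.01). The length trend and the step from E10.5 to E13.5 cannot be told apart with 1 library per stage.

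**Figure D4:**
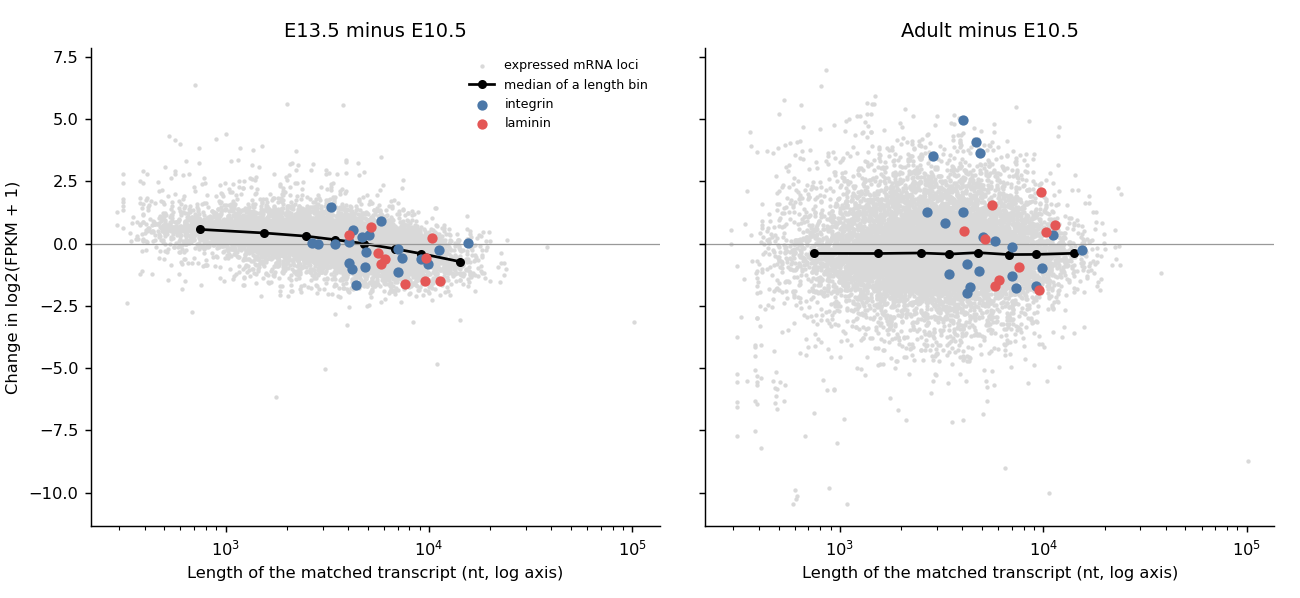
Change in log2(FPKM + 1) against the length of the matched transcript in nt (log axis) for expressed mRNA loci (grey), integrins (blue) and laminins (red), with the median of each of 8 length bins (black), for E13.5 minus E10.5 (left) and adult minus E10.5 (right). The bin medians fell from 0.57 to -0.73 on the left and lay between -0.36 and -0.44 on the right.

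From E13.5 to the adult, 9 of the 31 loci were higher and 4 were lower, against 13.0% and 32.1% of all expressed mRNA loci. The higher loci were Itga7 (5.77), Itgb6 (4.01), Itgam (3.80), Itgb2 (3.52), Lama2 (2.63), Lama5 (2.23), Lamb2 (1.91), Itgb7 (1.24) and the joint locus of Itgad and Itgax (1.22). All 9 stayed higher by 1 or more after the subtraction for length and after both rescalings. Both rescalings raised every change in this interval, so they could not remove a higher locus and worked against the lower ones. The subtraction for length lowered Lama2 and Lama5 only to 2.50 and 2.11. Itgb6, Itgam, Itgb2, Itgb7 and the joint locus counted as expressed only through the adult library, so their place here follows in part from the filter. The lower loci were Itga2 (-1.37), Itga2b (-1.22), Itgb3 (-1.21) and Itgb8 (-1.06), of which Itga2 alone stayed lower by 1 after median-of-ratios scaling. After the subtraction for length Itgb3 (-1.16) and Itgb8 (-1.18) stayed so and Itga2 (-0.95) did not, so no lower locus passed under both. The loci that were higher thus comprised the muscle chains Itga7, Lama2 and Lamb2, the leukocyte chains, Itgb6 and Lama5.

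Of 6 partners of laminins in the basement membrane, 4 were lower over the whole span as deposited and 2 after median-of-ratios scaling, with median changes of -1.26 and -0.86. Over all expressed mRNA loci, 27.3% were lower as deposited. Nid2, which links laminin to collagen IV, had 52.9, 21.1 and 2.18 FPKM (change of -4.09). Agrn, the heparan sulfate proteoglycan agrin, had 35.6, 12.4 and 5.97 FPKM (change of -2.39). Hspg2, which encodes perlecan, had 57.5, 6.02 and 22.7 FPKM (change of -1.30), and Col4a1 had 143, 43.2 and 60.7 FPKM (change of -1.22). From E10.5 to E13.5 all 6 genes were lower by 1 or more, with a median of -1.58, and all 6 remained so after the subtraction for length (-1.40). In that interval 4.85% of all expressed mRNA loci were lower as deposited.

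Most other receptors of laminin were higher in the adult, as were Itga7 and Lama2. Of the 10 genes of the dystroglycan complex and Bcam, 6 were higher in the adult and 0 were lower, on both scales, with a median change of 1.65 as deposited and 2.05 after median-of-ratios scaling. As deposited, 14.8% of all expressed mRNA loci were higher and 27.3% were lower. Sgcd, a sarcoglycan of striated muscle, had 9.06, 9.83 and 53.5 FPKM, Sgca had 12.4, 9.40 and 53.2 FPKM, and Dmd, which encodes dystrophin, had 11.2, 11.7 and 53.8 FPKM. These 3 were chosen by the size of their change. The 5 cardiomyocyte markers were also higher, with a median change of 1.93 and a summed level of 2582, 4408 and 10325 FPKM, and their part in these values was not tested.

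Other ligands of integrins changed in both directions, with 3 of 8 expressed genes higher and 4 lower (3 lower after median-of-ratios scaling). The shares over all expressed mRNA loci were 14.8% higher and 27.3% lower as deposited. Spp1, which encodes osteopontin, had 0.167, 1.60 and 30.7 FPKM (change of 4.77), and Vtn, which encodes vitronectin, had 0.233, 0.106 and 15.6 FPKM (change of 3.75). Npnt, the ligand of the Itga8 integrin, had 5.97, 4.39 and 0.570 FPKM (change of -2.15). Fn1, which encodes fibronectin, had 305, 33.6 and 80.4 FPKM (change of -1.91), and its receptor chain Itga5 was also lower. The proteins that tie integrins to the cytoskeleton included 16 expressed genes, of which 2 were higher and 2 were lower, with a median of -0.07 (5 higher, 2 lower and 0.32 after median-of-ratios scaling). As deposited, neither count exceeded the share over all expressed mRNA loci (14.8% higher, 27.3% lower).

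In that list Lims2, a partner of integrin-linked kinase also called PINCH2, had 1.33, 2.74 and 18.5 FPKM (change of 3.06), and Tns1, which encodes tensin, had 14.04, 11.5 and 65.4 FPKM (change of 2.14). Ilk, the integrin-linked kinase, had 63.7, 96.5 and 18.0 FPKM (change of -1.76), and Parva, which binds it, had 30.5, 28.2 and 9.87 FPKM (change of -1.54). Lims2 and Ilk, whose products act in 1 complex, thus moved in opposite directions.

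**Figure D5:**
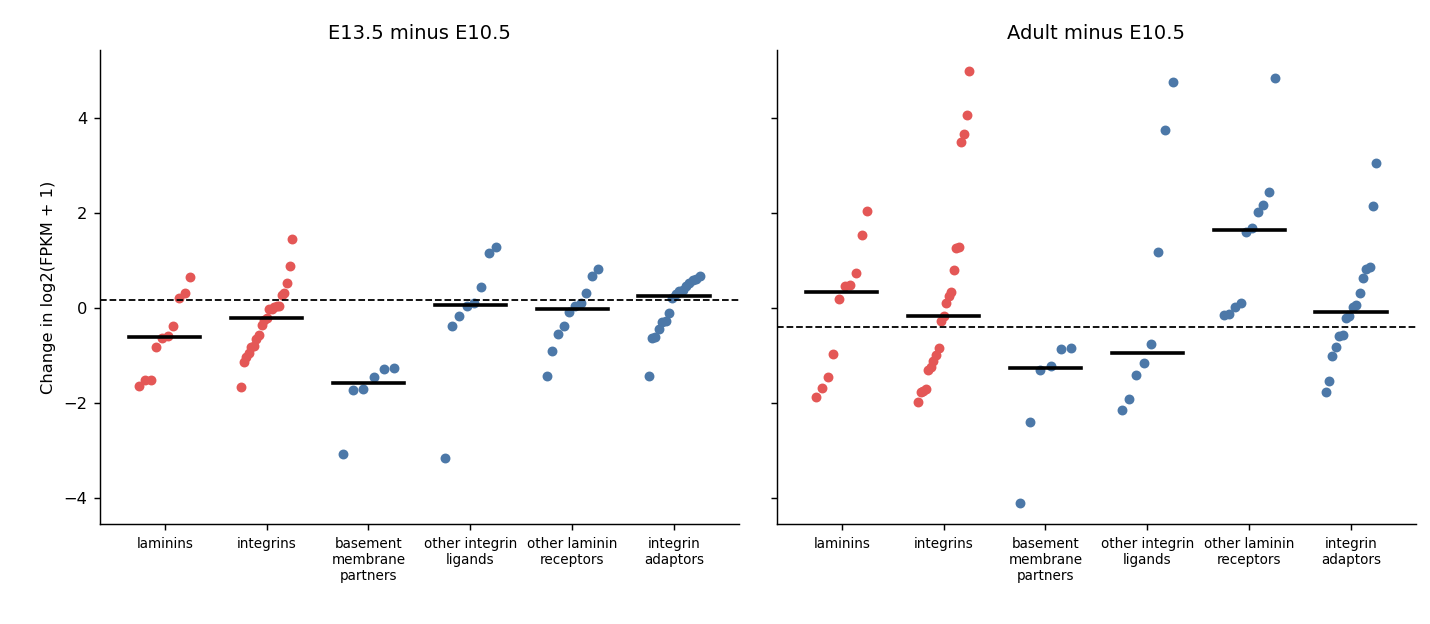
Change in log2(FPKM + 1) for E13.5 minus E10.5 (left) and adult minus E10.5 (right) of expressed laminins and integrins (red) and of 4 lists of partner genes (blue), 1 point per locus, with list medians (black bars) and the median of all expressed mRNA loci (dashed line). In the adult the other laminin receptors had a median of 1.65 and the basement membrane partners one of -1.26.

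Markers of further cell types gave these values between E10.5 and the adult. Endothelial markers had a median change of -0.09 as deposited and 0.32 after median-of-ratios scaling, so no direction was kept. Pecam1 was at 46.5, 47.6 and 72.8 FPKM and Cdh5 at 50.2, 12.9 and 47.2 FPKM. Tek (46.5, 40.4 and 25.0 FPKM) and Tie1 (30.8, 28.9 and 18.8 FPKM) had their lowest value in the adult. Fibroblast markers had a median of 0.12, or 0.52 after median-of-ratios scaling. Dcn was at 49.5, 75.9 and 351 FPKM and Tcf21 at 18.3, 22.9 and 1.79 FPKM. The medians as deposited were -2.39 for smooth muscle markers, -2.11 for epicardial markers and -4.69 for proliferation markers. Examples are Acta2 (1090, 836 and 124 FPKM), Upk3b (52.6, 43.7 and 1.49 FPKM) and Top2a (113, 131 and 1.46 FPKM). Exceptions were the smooth muscle marker Myh11, which was higher in the adult (0.112, 0.893 and 18.1 FPKM), and the epicardial marker Msln (0.555, 3.24 and 1.63 FPKM).

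Some members lie next to each other in the genome. Itga2 and Itga1 are 21086 bp apart on the minus strand of chromosome 13, and their changes from E10.5 to the adult were -0.84 and 0.34. These neighbours thus went in different directions. Itgam and the locus of Itgad and Itgax, 11076 bp apart on chromosome 7, were both higher in the adult.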

How the data were processed

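Heart ventricle RNA of 3 stages was analysed, with 1 library each. According to the methods of the study and the submitters' processing notes, the authors mapped paired reads to mm10 with TopHat2 and Bowtie and assembled them with Cufflinks, both with and without UCSC transcripts; exact versions and further options are not given in the sources used here. The authors deposited FPKM values per locus and the exon coordinates of the merged transcripts; no column was left unmapped. Of the introns of matched integrin and laminin transcripts, 99.8% were in GENCODE M21, so coordinates are GRCm38.

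Changes used log2(FPKM + 1), an expression minimum of 1 FPKM and a threshold of 1. FPKM columns summed to 601115, 808971 and 443471. From the smallest steps of unspliced loci, a 1 kb locus at 1 FPKM rested on about 14.04, 22.9 and 15.1 fragments, which limits low values. Median-of-ratios factors were 1.07, 1.19 and 0.804. The length adjustment used 20 length bins. Python 3.11.15, pandas 2.3.3 and numpy 2.4.6 were used.

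The genes, partner lists and marker lists were chosen with earlier results of these data known. Every expressed member is named with its 3 values, except for results that are not reported here. From each partner list up to 4 genes with the largest change from E10.5 to the adult are named. Up to 2 genes of each marker list were to be named; further ones were added after their values were seen, and those named are examples, not the largest changes. Promoter windows are from RefSeq (GRCm38.p6). Alternatives rescaled the libraries, changed the pseudocount, threshold or minimum, summed over all loci of a gene, or left out joint loci or leukocyte integrins.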

Additional observations from a re-analysis of the deposited data

Results flagged for a closer look

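Signal outside the main measurement was seen on the strand opposite to Itga11 on chromosome 9, where 4 unspliced loci carry the name of this gene. The locus at positions 62773678 to 62774194 (GRCm38) had 0.368 FPKM at E13.5 and 0.750 FPKM in the adult, and that at 62781386 to 62783184 had 0.292 FPKM in the adult. These 3 values rested on about 4, 6 and 8 fragments, above the 3 fragments that an observed count of 0 allows. Itga11 itself had 0.440, 0.331 and 0.564 FPKM in the 3 libraries in order of stage. Whether the FPKM values were computed with strand is not given in the sources used here.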

How the results depend on the processing

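No paired analysis was possible because no stage had a second library. Without replicates, the counts and medians below have no error. From E10.5 to E13.5, the count of higher loci was 2 with a pseudocount of 0.1, 2 after the adjustment for length (added after seeing the data) and 0 at a threshold of 2, and the count of lower loci was 3 after that adjustment and 0 at a threshold of 2. From E13.5 to the adult, the lower loci numbered 1 after median-of-ratios scaling, 2 after scaling to equal sums without globin and mitochondrial genes, 2 with a minimum of 5 FPKM, 2 after the adjustment for length and 0 at a threshold of 2. The median change there was 0.43, 0.21 and 0.13 under median-of-ratios scaling, equal sums and the adjustment for length, and the higher loci numbered 5 without leukocyte integrins. From E10.5 to the adult, the higher loci numbered 5 at a threshold of 2 and 4 without leukocyte integrins, and 0 were lower at a threshold of 2. The median was -0.16 with a minimum of 5 FPKM, -0.16 without joint loci and -0.27 without leukocyte integrins. Shares of Lama2, Lama4, Lama5, Itga6, Itga7 and Itgb1 moved in none of their 36 recomputed values, but most of these could not move. They came only from leaving out joint loci and from summing over all loci of a gene. The sum left every share unchanged, since each of these genes had 1 matched locus. Leaving out joint loci altered only the shares of Itga6 and Itga7, with Itga7 at 40.6% in the adult. Of the recomputed changes of single loci, 348 stayed and 24 moved, 23 of them with a pseudocount of 0.1, and no change of 1 or more turned its sign. Values of low loci such as Lama1, Itgb7 and Itgad/Itgax are limited by depth.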
